A study of Mus musculus with 6 samples.

Results

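The genes described here are 39 members of the unfolded protein response and the integrated stress response, taken from a fixed list of symbols and matched to the count table by gene identifier. All 39 were in the table of 24190 genes and all passed the expression filter, which left 14692 genes for testing. The list holds 4 stress sensors, 16 genes of the ATF4 arm, 17 genes of the endoplasmic reticulum (ER) arm, and Xbp1 and Ppp1r15b, which were placed in neither arm. Within the ER arm, 13 genes act in protein folding and 4 in degradation of ER proteins.

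RNA came from MTO54, a mouse tumor organoid (MTO) line that the labels describe as AKP and colorectal cancer. The study's methods describe MTOs derived from primary tumors of genetically engineered mice, and its collection also holds lines from metastases. All 6 samples were of 1 line, MTO54, in its parental form, so that controls and treated samples shared all its alterations. The 3 control samples received complete stem cell medium. The 3 treated samples received the same medium with Folfiri, given as 5FU at 50 μg/μl (a unit copied from the sample labels) and SN38 at 100 nM. 5FU disturbs thymidylate synthesis, and SN38 is the active form of irinotecan, an inhibitor of topoisomerase I. According to the labels, exposure lasted 2 days and began 2 days after the dissociated cells were seeded, although another passage of the study gives a longer exposure. Polyadenylated RNA was sequenced, and the comparison asks how chemotherapy changed expression in the organoids. The study calls the replicates of this experiment biological, but the labels do not state that they were separate cultures. If they were not, p-values measure the spread between these samples, which may be technical.

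The unfolded protein response begins at 3 sensors in the ER membrane, PERK (encoded by Eif2ak3), IRE1 (Ern1) and ATF6, when unfolded proteins build up in the ER lumen. PERK and, in amino acid shortage, GCN2 (Eif2ak4) phosphorylate the initiation factor eIF2α, which lowers protein synthesis in general but favours translation of ATF4, a transcription factor for amino acid metabolism and stress genes. IRE1 splices the Xbp1 transcript, and spliced XBP1 and cleaved ATF6 drive genes of chaperones and of ER-associated degradation, a system that secretory epithelia of the intestine use heavily. Counts per gene report none of these protein steps, and they do not separate spliced from unspliced Xbp1.

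Total counts ranged from 22103591 to 30098210 per sample. Mitochondrial genes took 2.09% to 2.36% of counts in controls and 3.94% to 4.44% after Folfiri. Control replicate 1 stood apart from the other controls, with a chi-square per degree of freedom of 25.3 and 23.9 against replicates 2 and 3, which differed from each other by 4.03. Folfiri replicate 3 stood apart to a lesser degree, with 13.3 and 12.8 against Folfiri replicates 1 and 2, which differed from each other by 3.76. Of the 10 markers of colon epithelium, 9 passed the filter, and Epcam reached a mean of 1252 CPM in controls. The summed level of that list was 5755 to 6659 CPM in controls and 4651 to 4821 CPM after Folfiri. Markers of goblet and other secretory cells, which are rich in ER, summed to 101 to 103 CPM in controls and 28.7 to 30.1 CPM after Folfiri. The sum in controls came mostly from Agr2 and Fcgbp, with means of 54.4 and 36.4 CPM in controls and 6.8 and 7.97 CPM after Folfiri. Of the 14 listed, 3 were not analysed here and 6 were tested, and 5 of these were lower and 1 was higher. The defining goblet markers Spdef and Tff3 were near 0 in every sample. The part of secretory cells in the results below was not tested, and in bulk samples fewer cells of a type and less RNA per cell cannot be told apart. Fibroblast markers summed to at most 2.45 CPM in any sample. The immune list, at 21.9 to 26.5 CPM in controls and 22.8 to 23.6 CPM after Folfiri, came mostly from Cd68, and the endothelial list, at 72.2 to 125 CPM and 65.7 to 76.4 CPM, mostly from Cdh5.

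After Folfiri, 26 of the 39 genes were lower and 7 were higher by edgeR's quasi-likelihood test at an adjusted p under 0.05, and 6 did not pass. Among all genes tested, 38.8% were called lower and 40.3% higher, or 79.1% in either direction. The median log2 fold change was -0.60 over the 39 genes and 0.02 over all genes tested. A change of at least 2-fold downward was called for 11 members, against 16.8% of all genes, and no member passed the same limit upward, against 19.5%. Ppp1r15a lay just under that limit, at a log2 fold change of 0.995, and at 0.90 to 1.06 when single samples were left out. The 3 control values and the 3 Folfiri values did not overlap in 26 of the 39 genes in the lower direction and in 7 of 39 in the higher direction, against 39.9% and 41.6% of all genes, and these were the same genes that passed the test. The largest falls were in Chac1, Trib3, Sdf2l1, Xbp1 and Hsp90b1, and the largest rise was in Ppp1r15a. When libraries were scaled by total counts alone, the fold changes of all genes shifted upward by a median of 0.28 on the log2 scale, and 21 members were then lower and 11 higher, beside 4250 lower and 7322 higher among all genes (5697 and 5926 with TMM scaling). Without control replicate 1, 27 members were lower and 8 were higher, and without Folfiri replicate 3, 26 were lower and 6 were higher.

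**Figure D1:**
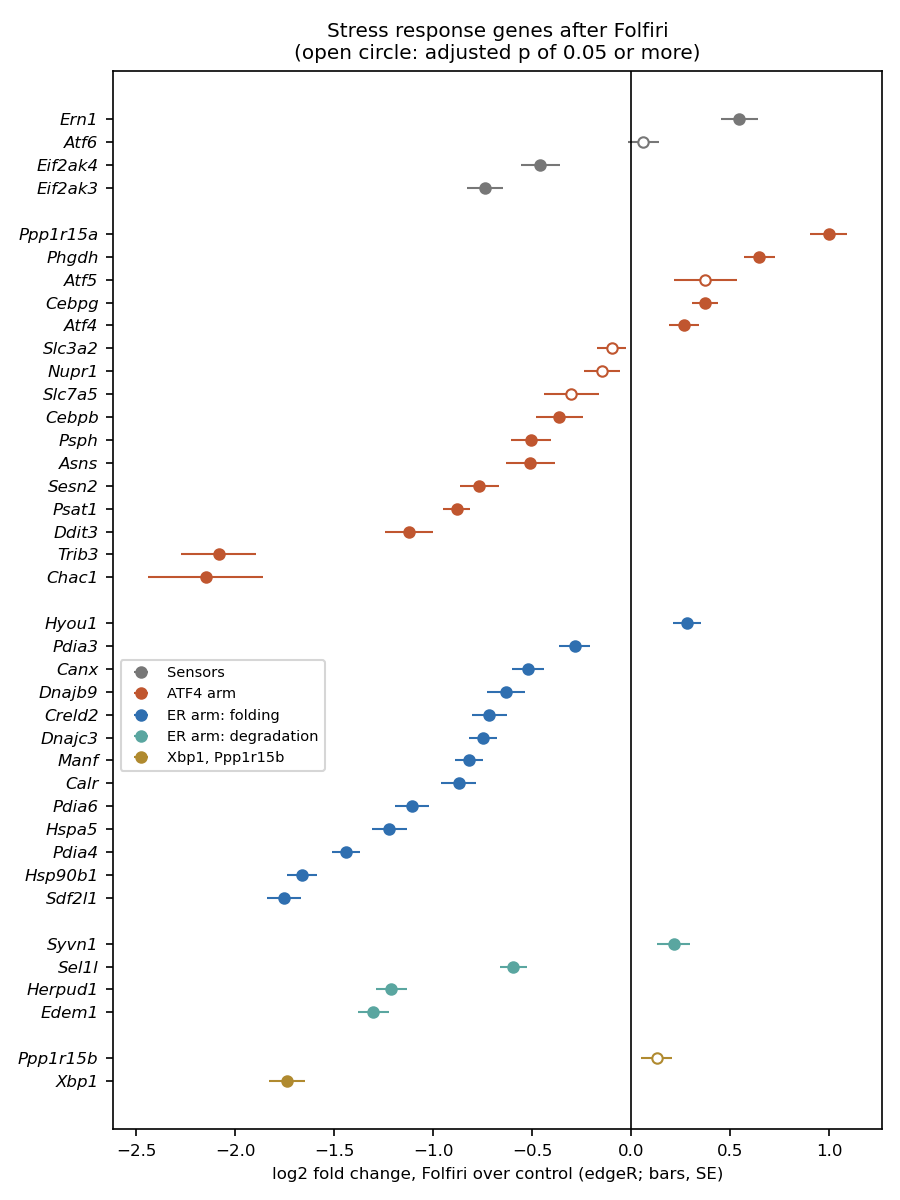
Log2 fold change of each of the 39 genes, Folfiri over control, on the x axis, with the genes in rows coloured by group. Points are edgeR estimates with bars of 1 SE over 3 samples per group, and open circles mark the 6 genes that did not pass the test. The ER folding genes lie left of 0 except for Hyou1 at 0.28, and Ppp1r15a at 0.995 is the rightmost point.

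The sensors did not move together. Transcripts of both eIF2α kinases on the list fell, those of IRE1 rose, and those of ATF6 did not pass the test. The eIF2α kinases outside the list, named here after their values were seen, did not fall with them. Eif2ak1 was higher (log2 fold change 0.68, SE 0.10, edgeR adjusted p = 7.5e-05), and Eif2ak2 did not pass (-0.14, SE 0.09, edgeR adjusted p = 0.176). Eif2ak3, which encodes PERK, measured 41.7, 45.6 and 49.0 CPM in control replicates 1 to 3 and 27.0, 29.0 and 25.5 CPM in Folfiri replicates 1 to 3. Every Folfiri value lay below every control value. The log2 fold change was -0.74 (SE 0.09, adjusted p = 1.98e-05, edgeR). Eif2ak4, which encodes the amino acid sensor GCN2, measured 26.1, 21.8 and 21.5 CPM in controls and 17.2, 17.04 and 16.4 CPM after Folfiri, with control replicate 1 the highest sample. Its log2 fold change was -0.46 (SE 0.10, edgeR adjusted p = 0.00139), and this call was lost with scaling by total counts (log2 fold change -0.19, edgeR adjusted p = 0.188).

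Ern1, which encodes IRE1, measured 68.3, 57.8 and 53.7 CPM in controls and 85.4, 91.6 and 85.5 CPM after Folfiri. The groups were separate, and the log2 fold change was 0.54 (SE 0.09, edgeR adjusted p = 0.000276). Atf6 measured 58.6, 55.5 and 57.4 CPM in controls and 57.0, 64.5 and 57.3 CPM after Folfiri, and the groups overlapped. Its log2 fold change was 0.06 (SE 0.08, edgeR adjusted p = 0.489), and with scaling by total counts it became 0.33 (edgeR adjusted p = 0.00581).

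In the ATF4 arm, transcripts of Atf4 itself rose slightly while several genes that ATF4 is known to activate fell. Of the 16 genes, 8 were lower, 4 were higher and 4 did not pass, with a median log2 fold change of -0.33. The shares of 50% lower and 25% higher compare with 38.8% and 40.3% of all genes. The 4 that rose were Atf4, Cebpg, Phgdh and Ppp1r15a, and the 3 that fell at least 2-fold were Ddit3, Trib3 and Chac1. Control replicate 1 was the highest control for 10 of the 16, against 43.7% of all genes tested, and Folfiri replicate 3 was the highest Folfiri sample for 12 of the 16, against 5869 of all 14692 genes. Without Folfiri replicate 3, 8 genes of the arm were lower and 4 were higher, with a median of -0.35. Without control replicate 1, 9 genes of the arm were lower and 5 were higher, with a median of -0.29.

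Atf4, the central transcription factor of this arm, lies on chromosome 15 of GRCm38 at chr15:80255184-80257541. It measured 256, 272 and 267 CPM in controls and 302, 310 and 343 CPM after Folfiri. All 3 Folfiri samples were above all controls, and the log2 fold change was 0.26 (SE 0.08, edgeR adjusted p = 0.00804). Cebpg, a partner of ATF4 in heterodimers, measured 72.3, 70.1 and 70.2 CPM in controls and 90.7, 94.4 and 89.6 CPM after Folfiri. The 2 groups were narrow and separate, and the log2 fold change was 0.37 (SE 0.07, edgeR adjusted p = 0.000362). Atf5, a related transcription factor that is likewise regulated by translation, measured 11.8, 7.92 and 7.51 CPM in controls and 11.8, 11.7 and 12.1 CPM after Folfiri. Control replicate 1 lay among the Folfiri samples, and the difference did not pass (log2 fold change 0.37, SE 0.16, edgeR adjusted p = 0.0522). Without control replicate 1 it passed, at a log2 fold change of 0.62 (edgeR adjusted p = 6.1e-05). It also passed with DESeq2 size factors, upper quartile scaling, no filter and the DESeq2 test, where 5 genes of the arm were higher.

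Ddit3, which encodes CHOP, a transcription factor of ER stress linked to cell death, lies at chr10:127290774-127296288. It measured 20.1, 23.7 and 24.99 CPM in controls and 9.52, 9.94 and 11.95 CPM after Folfiri. Every treated sample was far below the lowest control, and the level was 2.18-fold lower (SE of the log2 fold change 0.12, edgeR adjusted p = 9.1e-06). Cebpb, another bZIP factor, measured 18.7, 25.4 and 24.4 CPM in controls and 17.9, 16.6 and 18.5 CPM after Folfiri. Control replicate 1 was only just above the highest Folfiri sample. The log2 fold change was -0.36 (SE 0.12, edgeR adjusted p = 0.0166), and the call was lost without control replicate 2 (edgeR adjusted p = 0.0681) or without Folfiri replicate 2 (edgeR adjusted p = 0.072), and with scaling by total counts (log2 fold change -0.083, edgeR adjusted p = 0.503). Of its exonic length, 20.7% overlaps Tmem189 on the other strand. Nupr1, a small stress-induced chromatin protein, measured 208, 267 and 238 CPM in controls and 220, 212 and 209 CPM after Folfiri, with overlap. Its log2 fold change of -0.15 (SE 0.09, edgeR adjusted p = 0.152) became -0.24 (edgeR adjusted p = 0.00438) without control replicate 1 and 0.13 (edgeR adjusted p = 0.123) with scaling by total counts.

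Trib3 and Chac1 showed the largest falls of all 39 genes. Trib3, a pseudokinase that restrains ATF4 and CHOP, lies at chr2:152337422-152344032 and measured 29.4, 19.6 and 17.9 CPM in controls and 4.69, 5.13 and 5.98 CPM after Folfiri. The level was 4.24-fold lower (SE of the log2 fold change 0.19, edgeR adjusted p = 2.3e-06). Chac1, which degrades glutathione, lies at chr2:119351229-119354381 and measured 7.85, 4.76 and 3.65 CPM in controls and 1.24, 0.97 and 1.49 CPM after Folfiri. The level was 4.44-fold lower (SE of the log2 fold change 0.29, edgeR adjusted p = 4.74e-05), and counts for this gene were as low as 30 in 1 sample. In both genes control replicate 1 was the highest sample, and without it the log2 fold changes were -1.83 for Trib3 and -1.78 for Chac1. Sesn2, a leucine sensor that inhibits mTORC1, measured 16.7, 15.4 and 15.2 CPM in controls and 9.15, 8.91 and 9.71 CPM after Folfiri. Its groups were well separated, with a log2 fold change of -0.77 (SE 0.10, edgeR adjusted p = 3.51e-05).

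The enzymes of amino acid synthesis divided. The 3 enzymes of the serine pathway work in sequence, and the first rose while the other two fell. Phgdh, the first enzyme, measured 306, 276 and 268 CPM in controls and 428, 441 and 462 CPM after Folfiri. Its log2 fold change was 0.65 (SE 0.08, edgeR adjusted p = 2.22e-05). This value is uncertain, since 47.8% of the 50-base words of its exons occur in other genes, and 6 such genes carried counts equal to 61.9% of those of Phgdh in controls and 62.5% after Folfiri. Psat1, the second enzyme, measured 338, 315 and 323 CPM in controls and 172, 180 and 177 CPM after Folfiri. The groups lay far apart relative to their spread, and the log2 fold change was -0.88 (SE 0.07, edgeR adjusted p = 7.4e-07). Psph, the last enzyme, measured 42.5, 33.2 and 34.7 CPM in controls and 25.3, 26.2 and 26.4 CPM after Folfiri. Its log2 fold change was -0.51 (SE 0.10, edgeR adjusted p = 0.000815), and 10.4% of its exonic length overlaps Cct6a on the other strand.

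Asns, which makes asparagine, measured 101, 74.6 and 72.6 CPM in controls and 53.2, 59.2 and 62.2 CPM after Folfiri. The log2 fold change was -0.51 (SE 0.12, edgeR adjusted p = 0.00297), or -0.34 without control replicate 1, the highest sample. With scaling by total counts, neither Asns (edgeR adjusted p = 0.17) nor Psph (edgeR adjusted p = 0.117) passed. The 2 subunits of the large neutral amino acid transporter did not pass in either direction. Slc7a5, the transporting subunit, measured 227, 159 and 150 CPM in controls and 135, 154 and 146 CPM after Folfiri. Only control replicate 1 was clearly above the treated samples, and the log2 fold change of -0.30 (SE 0.14, edgeR adjusted p = 0.0634) became -0.09 without it (edgeR adjusted p = 0.226). Without control replicate 2 or control replicate 3, by contrast, Slc7a5 passed as lower (edgeR adjusted p = 0.0308 and 0.0125). Slc3a2, the heavy chain, measured 270, 276 and 270 CPM in controls and 238, 253 and 272 CPM after Folfiri (log2 fold change -0.10, SE 0.07, edgeR adjusted p = 0.234), and its sign turned with scaling by total counts (0.18, edgeR adjusted p = 0.038).

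Ppp1r15a, which encodes GADD34, the inducible subunit that brings phosphatase to eIF2α, showed the largest rise of the 39 genes. It lies at chr7:45522916-45526268 and measured 36.9, 46.4 and 44.0 CPM in controls and 84.7, 80.2 and 88.5 CPM after Folfiri. The groups were widely separated, with a 1.99-fold higher level after Folfiri (SE of the log2 fold change 0.09, edgeR adjusted p = 3.06e-06). Its constitutive counterpart Ppp1r15b measured 146, 131 and 131 CPM in controls and 151, 158 and 137 CPM after Folfiri. These groups overlapped, and the log2 fold change was 0.13 (SE 0.08, edgeR adjusted p = 0.157). Without control replicate 1, Ppp1r15b passed at a log2 fold change of 0.18 (edgeR adjusted p = 0.0247), and it also passed with scaling by total counts, at 0.40 (edgeR adjusted p = 0.00326).

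**Figure D2:**
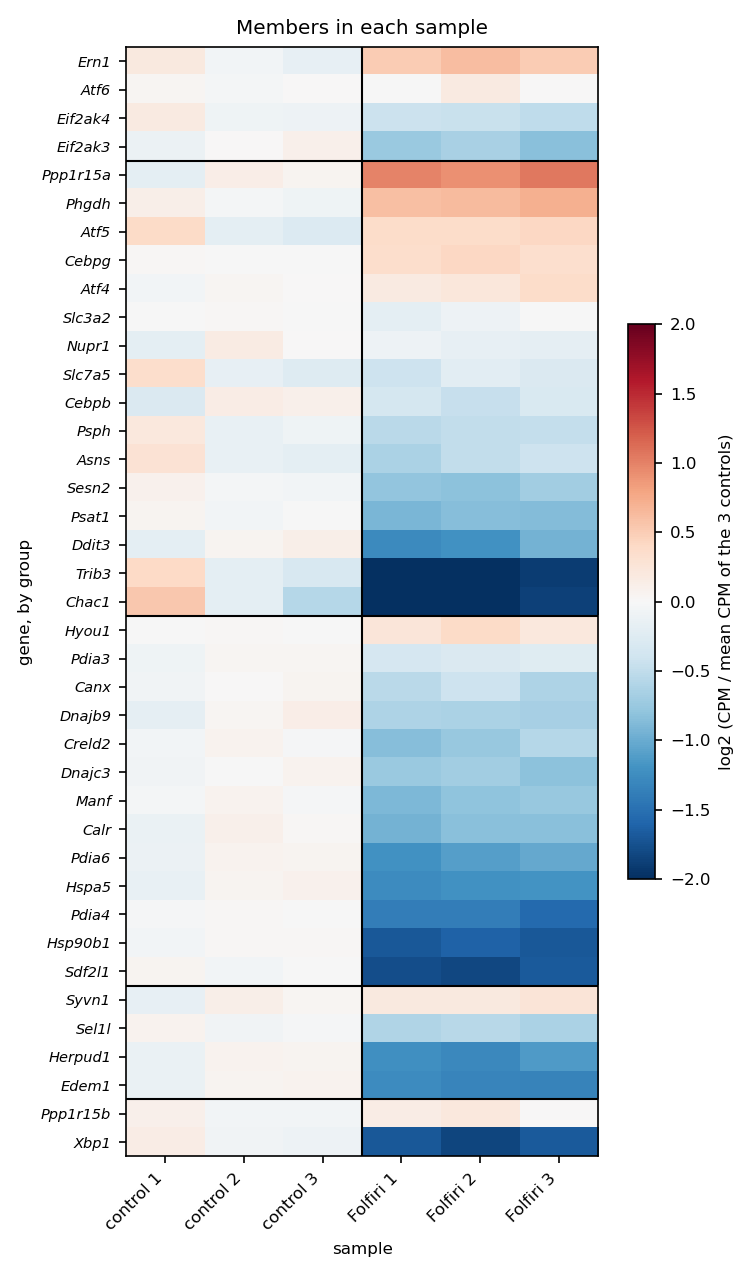
Level of each of the 39 genes in each of the 6 samples, as log2 of CPM over the mean of the 3 controls, with genes in rows by group and samples in columns. Red is above and blue below the control mean, and the colours are capped at 2 in either direction, so that Trib3 and Chac1 after Folfiri are at or near the end of the scale. Most rows of the ER groups are blue in all 3 Folfiri samples, and the rows of Ppp1r15a and Ern1 are red.

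The ER arm fell more uniformly. Of its 17 genes, 15 were lower and 2 were higher, and 7 fell at least 2-fold, against 38.8%, 40.3% and 16.8% of all genes. The median log2 fold change was -0.82. Among the 13 folding genes, 12 were lower, and Hyou1 was the exception. Without control replicate 1, 15 genes of the arm were lower and 1 was higher, with a median of -0.84.

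Xbp1, the transcription factor that IRE1 activates by splicing, lies at chr11:5520659-5525893 and measured 99.3, 84.9 and 83.4 CPM in controls and 27.4, 24.9 and 27.9 CPM after Folfiri. No sample came near the other group, and the level was 3.34-fold lower (SE of the log2 fold change 0.09, edgeR adjusted p = 5.6e-08). This fall was opposite in direction to the rise of Ern1.

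Both main chaperones of the ER lumen fell. Hspa5, which encodes BiP, the ER member of the HSP70 family, lies at chr2:34771970-34777547 and measured 961, 1111 and 1141 CPM in controls and 446, 464 and 466 CPM after Folfiri. The level was 2.33-fold lower (SE of the log2 fold change 0.09, edgeR adjusted p = 4.97e-07). Hsp90b1, which encodes GRP94, the ER member of the HSP90 family, lies at chr10:86690209-86705509 and measured 834, 876 and 882 CPM in controls and 267, 283 and 268 CPM after Folfiri. It was 3.17-fold lower (SE of the log2 fold change 0.08, edgeR adjusted p = 2.29e-08), the steeper fall of the 2 chaperones. Hyou1, an ER chaperone of the HSP110 family that exchanges nucleotide on BiP, went the other way, at 160, 164 and 162 CPM in controls and 192, 211 and 188 CPM after Folfiri. Its groups were separate but close, with a log2 fold change of 0.28 (SE 0.07, edgeR adjusted p = 0.00367).

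The cochaperones of BiP on the list, other than Hyou1, fell as well. Sdf2l1, which binds ER-resident J proteins, had the largest fall of the ER arm, from 40.5, 37.5 and 38.7 CPM in controls to 11.4, 11.0 and 12.1 CPM after Folfiri. The level was 3.38-fold lower (SE of the log2 fold change 0.08, edgeR adjusted p = 3.2e-08). The J proteins Dnajb9 and Dnajc3 fell by 0.63 and 0.75 on the log2 scale. Dnajb9 was at 25.7, 29.95 and 31.8 CPM in controls and at 19.0, 18.8 and 18.5 CPM after Folfiri. Dnajc3 was at 94.5, 98.5 and 104 CPM in controls and at 59.3, 61.0 and 56.2 CPM after Folfiri. Neither gene had overlapping groups. The secreted ER stress proteins Creld2 and Manf fell by 0.72 and 0.82 on the log2 scale, and all 4 of these genes passed the test, with edgeR adjusted p-values between 0.000109 for Dnajb9 and 1.57e-06 for Manf.

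The protein disulfide isomerases, which form and rearrange disulfide bonds, differed in the size of their fall. Pdia4 measured 216, 223 and 218 CPM in controls and 83.6, 83.9 and 74.5 CPM after Folfiri, a 2.72-fold lower level (SE of the log2 fold change 0.07, edgeR adjusted p = 4.24e-08). Pdia6 measured 447, 510 and 503 CPM in controls and 211, 226 and 240 CPM after Folfiri, a 2.16-fold lower level (SE of the log2 fold change 0.08, edgeR adjusted p = 6.35e-07). Pdia3, which works with the lectin chaperones on glycoproteins, changed less, from 606, 662 and 663 CPM to 512, 528 and 544 CPM. Its log2 fold change of -0.29 (SE 0.08, edgeR adjusted p = 0.00558) was -0.01 with scaling by total counts and then did not pass (edgeR adjusted p = 0.896). The lectin chaperones themselves fell with separate groups. Calr was at 874, 1030 and 971 CPM in controls and 497, 539 and 534 CPM after Folfiri (log2 fold change -0.87, SE 0.09, edgeR adjusted p = 5.38e-06). Canx was at 631, 665 and 686 CPM in controls and 454, 494 and 432 CPM after Folfiri (log2 fold change -0.52, SE 0.08, edgeR adjusted p = 0.000148).

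Of the 4 genes of ER-associated degradation, 3 fell. Herpud1, a membrane scaffold of the degradation complex, measured 166, 190 and 187 CPM in controls and 77.6, 74.3 and 82.5 CPM after Folfiri, and was 2.32-fold lower (SE of the log2 fold change 0.08, edgeR adjusted p = 2.15e-07). Edem1, which helps to select misfolded glycoproteins for degradation, measured 121, 138 and 140 CPM in controls and 55.9, 53.1 and 52.5 CPM after Folfiri, and was 2.47-fold lower (SE of the log2 fold change 0.08, edgeR adjusted p = 1.19e-07). In both genes the lowest control was over the highest Folfiri sample by more than the whole spread of either group. Sel1l and Syvn1 encode partners in 1 ubiquitin ligase complex, but their transcripts moved in opposite directions. Sel1l, the adaptor, measured 142, 129 and 133 CPM in controls and 89.0, 91.3 and 86.7 CPM after Folfiri (log2 fold change -0.60, SE 0.07, edgeR adjusted p = 1.36e-05). Syvn1, the ligase HRD1, measured 60.4, 73.5 and 70.0 CPM in controls and 77.6, 77.6 and 81.1 CPM after Folfiri. Its rise was small (log2 fold change 0.21, SE 0.08, edgeR adjusted p = 0.0363). The call was lost without control replicate 1 or 3 and without any of the 3 Folfiri replicates, with edgeR adjusted p-values from 0.0587 to 0.0876, and with DESeq2 (adjusted p = 0.0516).

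The ER stress response element, to which ATF6 with NF-Y and also XBP1 are known to bind, reads CCAAT, then any 9 bases, then CCACG. RefSeq promoter windows on GRCm38.p6, from 250 bases before to 50 bases after a gene's start, were found for 34 of the 39 genes and were searched on both strands. The element was in windows of 8 of the 15 ER arm genes with a window and of 0 of the 15 ATF4 arm genes with one, and in 0.119% of all 32851 windows. Because the ER arm was listed as genes driven by XBP1 and ATF6, these shares are a description and not a test. The copies are shown because these 8 genes, most of them chaperone genes, share them. Each is read along the element's own strand, and capitals mark the 2 fixed parts.
Hspa5: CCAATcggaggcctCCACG
Hsp90b1, copy farther from the start: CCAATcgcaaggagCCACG
Hsp90b1, copy nearer the start: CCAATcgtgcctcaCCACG
Calr: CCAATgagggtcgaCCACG
Canx: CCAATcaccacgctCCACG
Pdia6: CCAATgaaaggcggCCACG
Dnajc3: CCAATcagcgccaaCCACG
Creld2: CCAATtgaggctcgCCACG
Syvn1: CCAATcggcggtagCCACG

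Of the 8 genes with the element, 7 were lower and Syvn1 was higher, and their median log2 fold change was -0.81, near that of the whole ER arm. A match is a run of letters and not a measured binding site. The copy of Hspa5, at chr2:34772025-34772043, lies 47 bases before the RefSeq start but within the GENCODE gene, whose first base is farther upstream. Copies of 2 members also lie in the window of another gene, that of Calr in the window of 1700122E12Rik, which was not among the genes tested, and that of Creld2 in that of Alg12. The copy of Creld2, at chr15:88819520-88819538, is shared with Alg12, a gene of N-glycan assembly on the opposite strand. The 2 genes that share this copy moved in opposite directions, since Alg12, named here after its value was seen, was higher after Folfiri (log2 fold change 0.95, SE 0.10, edgeR adjusted p = 7.06e-06). Among the 29 genes outside the list with the element, 12 were tested, of which 7 were lower and 4 were higher (58.3% and 33.3%, against 38.8% and 40.3% of all genes).

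Hsp90b1 was the only member whose window held 2 copies of the element, on opposite strands. The bases before the annotated gene, at chr10:86705510-86705694 on the minus strand of GRCm38.p6, are given 5′ to 3′ with the fixed parts of both copies in capitals.
Hsp90b1 upstream: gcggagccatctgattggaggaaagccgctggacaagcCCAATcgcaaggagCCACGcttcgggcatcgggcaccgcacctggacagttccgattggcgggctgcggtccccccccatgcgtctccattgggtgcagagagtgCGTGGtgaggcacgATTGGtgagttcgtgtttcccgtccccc

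The element bound by dimers of C/EBP proteins and ATF4 was searched as TGATGCAA. It was in the windows of Chac1, Nupr1 and Herpud1 and in 0.895% of all windows. Chac1 and Herpud1 were lower after Folfiri, and Nupr1 did not pass. The core TGACGTGG of the XBP1-binding unfolded protein response element was in no window of a member and in 0.676% of all windows. Chac1 had the largest fall with all 6 samples, though not without control replicate 1. The bases before it, at chr2:119350992-119351228 on the plus strand of GRCm38.p6, are given with the reverse complement of TGATGCAA in capitals.
Chac1 upstream: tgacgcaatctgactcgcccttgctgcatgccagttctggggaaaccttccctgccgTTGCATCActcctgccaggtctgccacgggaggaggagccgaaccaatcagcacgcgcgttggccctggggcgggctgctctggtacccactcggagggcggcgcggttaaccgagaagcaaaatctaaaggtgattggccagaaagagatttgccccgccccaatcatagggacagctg

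Set side by side, the mean log2 level was lower after Folfiri in both arms, and more so in the ER arm. The mean log2 CPM over the 16 ATF4 arm genes was 5.99, 5.86 and 5.80 in control replicates 1 to 3 and 5.46, 5.47 and 5.58 in Folfiri replicates 1 to 3. Over the 17 ER arm genes it was 7.57, 7.68 and 7.68 in controls and 6.77, 6.81 and 6.80 after Folfiri. In each arm, every treated sample was below every control on this scale, which weights all genes equally. The summed CPM of the ATF4 arm, in which abundant genes weigh most, overlapped between the groups, at 1831 to 1963 in controls and 1802 to 1935 after Folfiri. That of the folding genes did not, at 5072 to 5605 and 2855 to 3027. The mean of the ATF4 arm went from 5.88 ± 0.10 to 5.50 ± 0.07 (SD, n = 3) and that of the ER arm from 7.64 ± 0.06 to 6.79 ± 0.02 (SD, n = 3). The ATF4 arm mean minus the ER arm mean was -1.58, -1.82 and -1.88 in controls and -1.31, -1.34 and -1.22 after Folfiri, so that the balance lay nearer the ATF4 arm in all 3 treated samples. These are descriptions of chosen lists, with no test. The median log2 fold change of the ATF4 arm was higher than that of the ER arm by 0.49, and by 0.46 to 0.56 when single samples were left out. This difference hardly moved with scaling by total counts (0.48), since both medians shifted together, to -0.061 for the ATF4 arm and -0.54 for the ER arm. The further lists described below did not all repeat this order, which depends on the genes chosen. Further ATF4 response genes had a median of -1.97, against -0.48 for further ER folding genes, the reverse order. Amino acid transporters (0.24) and synthetases (0.05) had medians above those of the further ER lists.

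**Figure D3:**
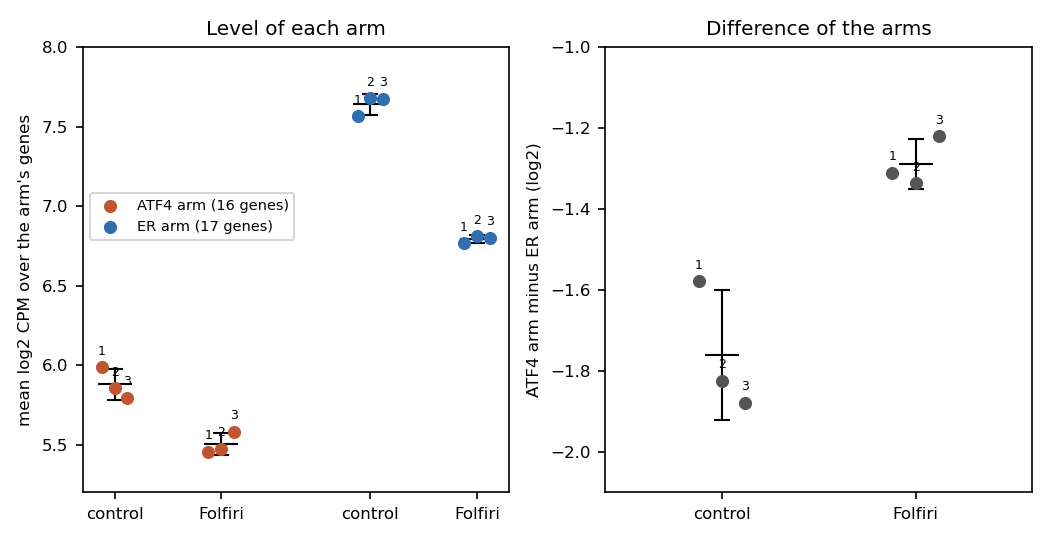
Left, mean log2 CPM over the 16 ATF4 arm genes and the 17 ER arm genes in each sample. Right, the ATF4 arm mean minus the ER arm mean on the log2 scale. Points are samples numbered by replicate, and bars show the mean and SD of 3 samples. The ER arm falls from 7.64 to 6.79 and the ATF4 arm from 5.88 to 5.50, and the difference rises from -1.76 to -1.29.

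Control replicate 1 differed from the other controls in opposite ways in the 2 arms. It was the lowest control for 15 of the 17 ER arm genes and the highest for 10 of the 16 ATF4 arm genes, beside 6025 and 6418 of the 14692 genes tested. Its median log2 gap to the mean of the other controls was -0.10 in the ER arm and 0.11 in the ATF4 arm, against 0.01 over all genes tested. In Trib3 and Chac1 this gap was in the direction away from the Folfiri samples, and in Hspa5 it was toward them.

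On a scale that allows genes to be compared, CPM per kilobase of exon, the order of the members changed. Calr was the highest in both groups, at 333 CPM per kilobase in controls and 182 after Folfiri. Hspa5 went from rank 2 to rank 5 of 39 and Hsp90b1 from rank 3 to rank 9. Xbp1 went from rank 19 to rank 29 and Sdf2l1 from rank 17 to rank 27. In the other direction, Ppp1r15a moved from rank 26 to rank 15 and Ern1 from rank 34 to rank 25, while Atf4 moved from rank 8 to rank 4. The sensors were among the least abundant members in controls, with Eif2ak4 the lowest at 3.11 CPM per kilobase.

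Other genes of these pathways, from lists that leave out the 39 members, showed a wider range of changes. In the list of further ATF4 response genes, 15 of 19 tested were lower and 2 were higher, with a median log2 fold change of -1.97, and 12 fell at least 2-fold, against 38.8%, 40.3% and 16.8% of all genes. Aldh1l2, a mitochondrial folate enzyme, was 20.4-fold lower, from 18.0, 15.1 and 14.0 CPM to 0.64, 0.90 and 0.76 CPM. Ddit4, which encodes the mTORC1 inhibitor REDD1, was 19.6-fold lower, from 906, 1243 and 1302 CPM to 61.2, 57.0 and 57.6 CPM. Vegfa, an angiogenic growth factor, was 13.9-fold lower. For these 3 genes the groups lay more than 10-fold apart, and edgeR adjusted p-values were at most 1.04e-08. Ddit4 and Vegfa also respond to oxygen supply and other signals, and the list is not specific to ATF4. The 2 that rose were Xpot, which exports tRNA from the nucleus (log2 fold change 1.11, SE 0.16, edgeR adjusted p = 8.74e-05), and Shmt2, a mitochondrial serine hydroxymethyltransferase (0.50, SE 0.14, edgeR adjusted p = 0.00754).

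Amino acid transporters and cytosolic aminoacyl-tRNA synthetases, many of which are also known ATF4 targets, moved in both directions. Of 9 transporters, 5 were higher and 3 lower, with a median of 0.24, against 40.3% higher and 38.8% lower among all genes. In a list of 9, these shares differ by about 1 gene. Slc7a6 rose most of those above 5 CPM, from 40.1, 35.1 and 33.6 CPM to 82.6, 94.1 and 86.0 CPM, and Slc7a1 rose by a log2 fold change of 0.65 (SE 0.19, edgeR adjusted p = 0.00828). Slc1a4, a transporter of serine and alanine, was 2.00-fold lower, and Slc6a9, a glycine transporter, had a log2 fold change of -0.52 (SE 0.09, edgeR adjusted p = 0.000262). The cystine transporter Slc7a11 passed narrowly as lower (log2 fold change -0.27, SE 0.11, edgeR adjusted p = 0.0449), and lost the call without control replicate 1 (edgeR adjusted p = 0.127), Folfiri replicate 1 (0.0694) or Folfiri replicate 3 (0.177). Slc38a2 (log2 fold change 0.24, SE 0.09, edgeR adjusted p = 0.0343) lost its call without control replicate 2 or 3 or without Folfiri replicate 1 or 2, with edgeR adjusted p-values from 0.0666 to 0.173.

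Of 20 synthetases, 8 were higher and 6 were lower, with a median of 0.05. These shares, 40% and 30%, lay near or below the 40.3% and 38.8% of all genes. Hars rose from 60.9, 53.5 and 50.7 CPM to 124, 128 and 133 CPM, and Wars and Kars rose by log2 fold changes of 0.997 and 0.51. Dars fell from 138, 128 and 126 CPM to 55.2, 52.8 and 56.5 CPM, and Vars and Lars had log2 fold changes of -1.04 and -1.002. Control replicate 1 was the highest control for 16 of the 20. The count of higher synthetases was 12 without control replicate 1, and 5 without control replicate 2, control replicate 3 or Folfiri replicate 1.

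Of 18 further ER folding genes, 11 were lower and 4 were higher, with a median of -0.48, against 38.8% lower and 40.3% higher among all genes. Ero1l, an oxidase that recharges protein disulfide isomerase, was 13.8-fold lower, from 1081, 1202 and 1278 CPM to 91.1, 86.3 and 80.9 CPM. Sil1, a nucleotide exchange factor of BiP, was 9.63-fold lower, from 57.5, 71.3 and 70.9 CPM to 7.31, 6.75 and 6.67 CPM. P4hb, the founding protein disulfide isomerase, was 2.87-fold lower. In all 3 genes the groups were far apart, with edgeR adjusted p-values of at most 2.55e-07. Sil1 and Hyou1 act on the same step of the BiP cycle, and one fell while the other rose. Among those that rose were Fkbp11, a peptidyl-prolyl isomerase (log2 fold change 1.03), Uggt1, the folding sensor of the lectin cycle (0.61), and Dnajb11, another J protein of the ER (0.45).

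In ER-associated degradation, 7 of 14 further genes were lower and 6 were higher, with a median of -0.21. The share of higher genes, 42.9%, lay near the 40.3% of all genes, and 50% were lower, against 38.8%. The lectin Erlec1 was 3.82-fold lower, and Edem3 and Edem2, relatives of Edem1, were 2.32-fold and 1.70-fold lower. Faf2, H13 and Ube2g2 were higher, with log2 fold changes of 0.95, 0.60 and 0.35. In translocation into and export from the ER, 10 of 15 genes were lower and 3 were higher, against the same shares of all genes, with a median of -0.72. The COPII coat gene Sec24d was 3.29-fold lower, while the coat genes Sec23b and Sec31a were higher, with log2 fold changes of 0.67 and 0.47. Ssr4 and Ssr2, subunits of 1 translocon-associated complex, moved apart, at log2 fold changes of -1.38 and 0.42. Spcs3, of the signal peptidase, had a log2 fold change of -1.04.

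Among 16 further sensors and initiation factors, 7 were lower and 6 were higher, with a median of -0.11, so that both shares (43.8% and 37.5%) lay near those of all genes, 38.8% and 40.3%. Ern2, the epithelial relative of Ern1, fell from 12.1, 10.4 and 10.9 CPM to 1.81, 1.90 and 1.82 CPM. It was 6.03-fold lower (SE of the log2 fold change 0.13, edgeR adjusted p = 4.85e-08), opposite to Ern1. Of the 6 secretory markers tested, 5 fell as well and Clca1 rose (log2 fold change 2.402, edgeR adjusted p = 1.51e-07), and their part in the fall of Ern2 was not tested. Crebrf and Creb3l2, genes of bZIP proteins linked to ER stress, were 3.31-fold and 3.11-fold lower, and the ATF6 relative Atf6b was 1.97-fold lower. In the same list, Creb3l1 was 21.2-fold lower at a mean below 5 CPM, whereas Creb3 was 2.24-fold higher. Atf6b, Creb3l1 and Creb3 were named after their values were seen. Eif2b3 and Eif2b4, 2 subunits of the exchange factor on which phosphorylated eIF2α acts, were 3.57-fold and 2.26-fold higher. The complex did not rise as a whole, since Eif2b2 and Eif2b5, named here after their values were seen, were lower (log2 fold changes -0.69 and -0.66), and Eif2b1 did not pass (-0.09). Eif2b3 rose from 7.35, 6.12 and 6.38 CPM to 22.3, 24.9 and 23.9 CPM, with wide separation. Mbtps2, a protease that cleaves ATF6, was 2.405-fold higher.

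**Figure D4:**
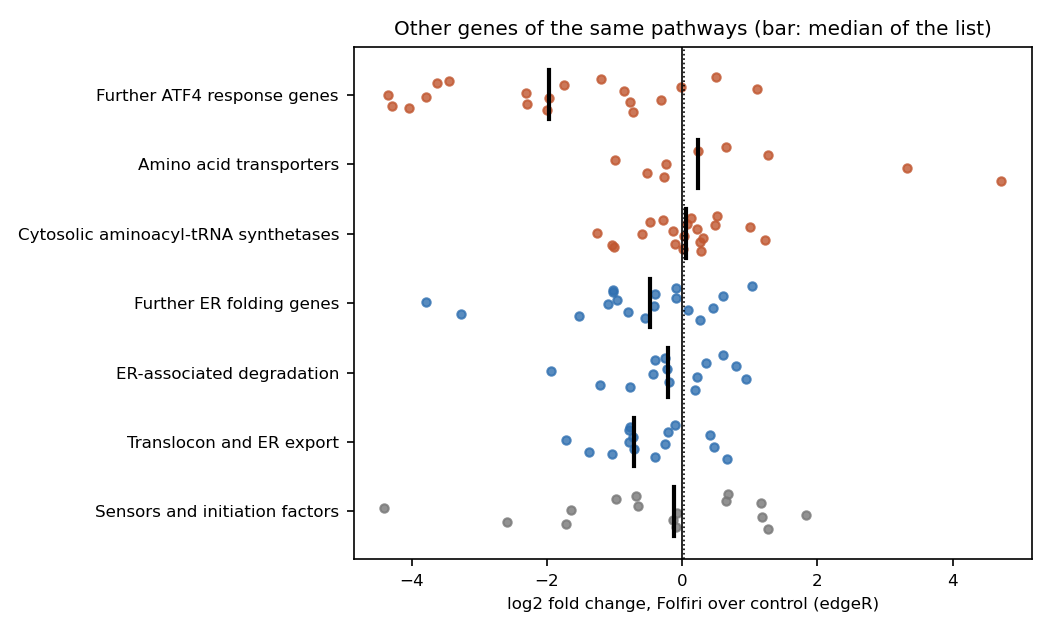
Log2 fold change, Folfiri over control, on the x axis for each tested gene of 7 further pathway lists, 1 list per row. Points are genes, bars are list medians, and the dotted line is the median of all genes tested, 0.02. The further ATF4 response genes have the lowest median, -1.97, and reach -4.35, while transporters and synthetases have medians of 0.24 and 0.05.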

How the data were processed

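RNA of 3 control and 3 Folfiri samples was compared, grouped by the sample titles. The authors aligned reads with STAR (version 2.5.2 in the submitters' processing notes) to the mouse genome (GRCm38) with GENCODE annotation, used Sambamba to sort them and Rsubread to count them per gene, and deposited the raw counts. The strand setting and the treatment of multimapping reads are not given in the sources used here, so reads of overlapping or near-identical genes cannot be told apart.

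These counts were analysed in R 4.3.3 by edgeR 4.0.16, with filterByExpr (minimum count 10), TMM scaling and the quasi-likelihood test on all 6 samples. P-values were adjusted by Benjamini-Hochberg over 14692 genes, with a threshold of 0.05. Levels are TMM-normalised CPM, and arm levels use their log2 values (prior count 2). The SE is the log2 fold change divided by the root of the F statistic. Symbols, positions and exonic lengths came from an earlier GENCODE release on the same build, and 24168 of 24190 identifiers matched. Replicates differed by more than sampling noise (chi-square per degree of freedom 3.76 to 25.3). On simulated counts, 200 of 200 changed genes were called, and so were 15 of the others among the 14462 genes tested. Recovery was not split by the size of the fold change. In the data 79.1% of genes were called, and recovery with so large a share of genes changed was not tested.

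Members and lists were chosen with earlier results of these data known. From each further list, at most 3 genes per direction were named, those with the largest change among genes called with a mean of at least 5 CPM. Alternatives were DESeq2 size factors, upper quartile and total count scaling, no filter and a stricter filter (50 counts in 3 samples), DESeq2 1.42.0, a replicate block, and each sample left out.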

Additional observations from a re-analysis of the deposited data

How the results depend on the processing

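The main limit is the scaling. Scaled by total counts, the ATF4 arm had a median log2 fold change of -0.061 and the ER arm one of -0.54, 5 genes of the ATF4 arm were lower, 11 members were higher, and 1 transporter and 3 genes of ER-associated degradation were lower. Nupr1 (0.13) and Slc3a2 (0.18) then changed sign. With upper quartile scaling the ATF4 arm median was -0.28. In the ER arm, 1 gene in place of 2 was higher with no filter and with DESeq2, and 1 to 2 when single samples were left out, and 3 in place of 6 genes of ER-associated degradation were higher with no filter. The number of higher synthetases was 5 to 12 when single samples were left out. The causes were not tested. The replicate numbers did not pair the samples, since the correlations of same-numbered deviations were 0.03, -0.12 and 0.04. With a replicate block, 11500 genes were called in place of 11623, 27 members were lower and 8 higher, and Atf5 (edgeR adjusted p = 0.0223) and Slc7a5 (edgeR adjusted p = 0.0433) passed. The difference of the arm medians ranged from 0.46 to 0.56 over the alternatives that use medians. The mean log2 fold changes of the 2 arms differed by 0.45, beside 0.47 for the mean log2 CPM of the arms. Counts of the members were 30 or more in every sample, and Chac1 was the least precisely measured.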

Other observations

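Across the 39 genes, Spearman's rho between the log2 fold change and the genomic span was 0.12, and across 14687 genes it was -0.01. These are correlations across genes, which are not independent replicates, and are given as descriptions.

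Genes outside the list with the same motifs in their promoter windows were also read from the fit. Of 77 tested genes with TGATGCAA, 38 were lower and 21 were higher, with a median log2 fold change of -0.25, or 49.4% and 27.3% against 38.8% and 40.3% of all genes. Of 107 tested genes with TGACGTGG, 45 were lower and 41 were higher, with a median of -0.10, and these shares, 42.1% and 38.3%, lay near those of all genes. The 12 tested genes with the ER stress response element had a median of -0.60, but 3 of the 7 lower ones, Xlr3a, Xlr3b and Xlr3c, are near-identical copies whose reads may be shared. These genes were named after their values were seen.

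Counts of genes that overlap a member can enter the values of that member where strand is not used. In controls, the counts of Tmem189 were 427% of those of Cebpb, and those of Cct6a were 946% of those of Psph, and after Folfiri the same shares were 523% and 1600%. Of the exonic length of Manf, 8.85% overlaps Dcaf1 and 4930524O07Rik on the other strand. The counts found for these equalled 75.4% of those of Manf in controls and 115% after Folfiri. How many of these reads fall in the overlapping exons was not tested.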
